A study of Mus musculus with 38 samples.

Results

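Fibroblasts sorted from empagliflozin-treated, infarcted mouse hearts were compared with fibroblasts from sham-operated hearts, using 8 of the 38 RNA sequencing libraries of the series. These were the 4 libraries of the EMPA-Pre-AMI group and the 4 of the Sham group, chosen by their labels alone, and the members of the comparison were all 10691 genes with enough counts to be tested out of 35682 in the table. EMPA-Pre-AMI mice received empagliflozin (EMPA), an inhibitor of the sodium-glucose cotransporter SGLT2, by mouth each day at 10 mg/kg/d for 6 weeks, and then had 30 min of ischemia by ligation of the left anterior descending coronary artery and 2 h of reperfusion. Sham mice received the vehicle, dimethylsulfoxide in saline, for the same time and had an open chest without ischemia. Another group of 4 fibroblast libraries, Control-AMI, received the vehicle and the same ischemia and reperfusion, and its values are given beside the others. All were male C57BL/6 mice aged 8 to 12 weeks. No group received EMPA without infarction, so that in the comparison of EMPA-Pre-AMI with Sham the drug and the infarction cannot be told apart. Each library came from 2 pooled hearts, and the cells were collected after enzymatic digestion of the heart as those that lacked the leukocyte marker CD45 and the endothelial marker CD31 and carried CD90, the product of Thy1.

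Cardiac fibroblasts keep the collagen matrix of the heart in repair. When blood returns to an ischemic region they meet dying cardiomyocytes, reactive oxygen, clotting proteins and cytokines, and they answer with cytokines of their own, acute phase proteins and a provisional matrix, long before they deposit collagen as myofibroblasts. The first wave of such a response is carried by immediate early transcription factors, by NF-κB, by STAT3 downstream of the interleukin-6 receptor family, and by hormones released with the stress of surgery, among them glucocorticoids.

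The libraries held 1946056 to 2821373 counts after rounding, 2122433 to 2821373 in Sham and 1946056 to 2119839 in EMPA-Pre-AMI, and 3 counts, the upper limit for a gene without counts, corresponded to 1.02 to 1.58 CPM (counts per 1e6 counts, scaled with TMM factors), covering counting error only. Fibroblast genes were strong in every library: Dcn, encoding decorin, had 12400 to 16900 CPM in Sham and 10700 to 16900 in EMPA-Pre-AMI, and none of the 14 fibroblast markers differed between the groups at an FDR (Benjamini-Hochberg adjusted p of edgeR's quasi-likelihood test) below 0.05. Thy1 itself lay at 53.3, 59.4, 42.1 and 49.2 CPM in the Sham libraries and 72.7, 60, 52.2 and 35 in EMPA-Pre-AMI (log2 fold change 0.11 ± 0.21 (SE; FDR 0.815)). Markers of other cells were uneven. The 10 endothelial markers summed to 156 to 721 CPM in Sham and 180 to 890 in EMPA-Pre-AMI, with Cdh5 and Nos3 at 0 in Sham 3 and Sham 4, and the 10 mural markers summed to 1100 to 3020 and 1690 to 3190. The leukocyte markers other than Cd68 stood out in Sham 2 alone, with Lyz2 at 301 CPM and C1qa at 91.5, against at most 11.7 and 9.97 in the other 7 libraries. Cd68 was at 7.48 CPM in Sham 2 and was highest in EMPA-Pre-AMI 1, at 22.3 CPM. No tested gene of the 10 marker lists passed by edgeR or DESeq2 (5 of the 62 tested had an unadjusted p below 0.05). Of the 10 leukocyte markers only 3 had enough counts to be tested, and C1qa was not among them. No neutrophil marker and no T and NK cell marker had enough counts. No list level or mitochondrial share passed between the groups (exact permutation tests, two-sided, raw p at least 0.2, adjusted p at least 0.515 over 9 tests, with a smallest possible p of 0.0286). The part of these cells in the results below was not tested beyond leaving out each library. In bulk libraries fewer cells of a type and less RNA per cell cannot be told apart.

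At an FDR below 0.05, 546 of the 10691 genes (5.11%) differed between EMPA-Pre-AMI and Sham fibroblasts, 390 higher (3.65%) and 156 lower (1.46%) in EMPA-Pre-AMI. The shares of 3.65% and 1.46% are the background for the list counts below. In 500 of the 546 the 4 libraries of one group lay entirely above the 4 of the other, 358 of them higher and 142 lower. This was so for 1266 (11.8%) of all tested genes, with EMPA-Pre-AMI above in 6.59% and below in 5.25%. The median log2 fold change was 1.13 among the higher and -1.17 among the lower genes, but large changes were more often rises: 64 genes rose by 4-fold or more and 11 fell by as much. The groups were unevenly spread over sample-sheet lists, which no label names. They were inferred from the S number and the library number in the library names, whose meaning is not stated. With libraries ordered by S number, a new list began where the library number fell. The study states that all samples went through library preparation and sequencing together. Sham 1, Control-AMI 1 to 3 and EMPA-Pre-AMI 2 and 3 were on the same list. Sham 2 to 4, Control-AMI 4 and EMPA-Pre-AMI 4 were on another. List and group were thus partly aligned, and the main fit had no term for the list. The number called depended on the libraries. It was 264 without Sham 2, 297 without Sham 3, 266 without Sham 4, 313 without EMPA-Pre-AMI 2 and 305 without EMPA-Pre-AMI 4, and 811 without Sham 1, while all 546 genes kept their direction in each of these fits. EMPA-Pre-AMI 4 had the highest value of its group in 206 of the 390 higher genes (52.8%, against 30% of all tested genes), and Sham 4 the highest value of its group in 82 of the 156 lower genes (52.6%, against 29.8%). Of the 92 called genes that a fixed rule picked out, 57 kept their call with any 1 of the 12 fibroblast libraries left out, and the others are marked where they appear. In a fit of the libraries numbered 1805 and up alone (Sham 2 to 4, EMPA-Pre-AMI 3 and 4 and Control-AMI 4), 50 of the 92 were called and all 92 kept their direction. Among the 57, the calls lost in that fit were those of Actb (0.0634), Cish (0.122), Clmp (0.109), Ereg (0.233), Gadd45g (0.158), Glul (0.0628), Hif1a (0.0767), Ier5 (0.0518), Ikbke (0.162), Il6 (0.0647), Il6ra (0.0532), Klc4 (0.0634), Plk3 (0.0703), Rel (0.102) and Timp3 (0.0593), with the FDR in parentheses.

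**Figure D1:**
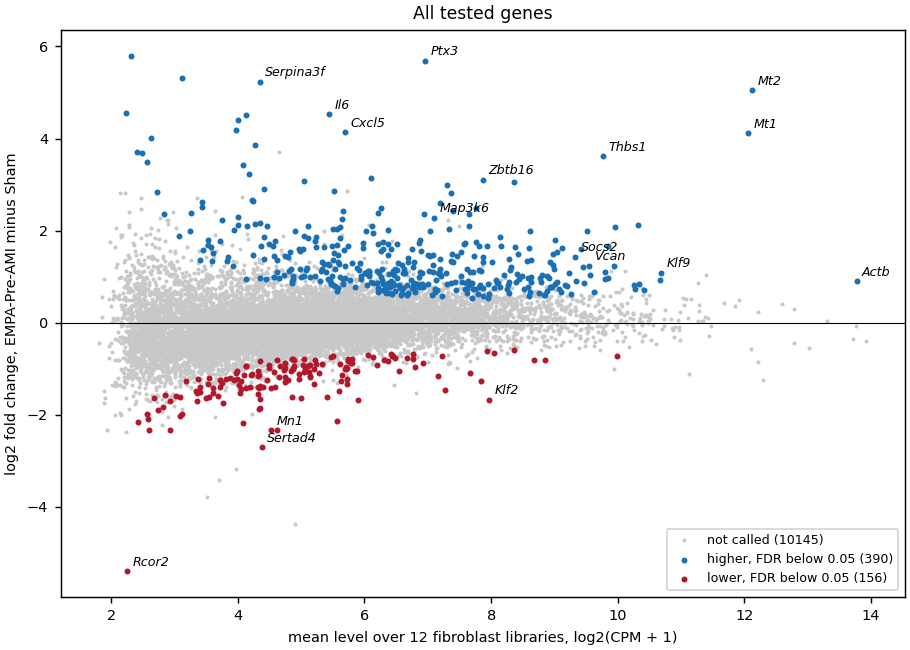
Log2 fold change of EMPA-Pre-AMI over Sham fibroblasts (y) against the mean level over the 12 fibroblast libraries as log2(CPM + 1) (x), 1 point per tested gene. Blue points are the 390 genes called higher, red points the 156 called lower and gray points the rest; Mt1, Mt2 and Thbs1 combine a high level with a rise, and Rcor2 is the only called gene below -3.

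Of the called genes whose groups did not overlap and whose mean was at least 10 CPM in the higher group, Ptx3 rose most. Ptx3 encodes the long pentraxin PTX3, a soluble protein of innate defense that marks microbes and dying cells, and was at 6.76, 3.52, 2.17 and 3.07 CPM in the Sham libraries and at 79.4, 73.7, 90.1 and 576 in EMPA-Pre-AMI. Every infarcted library was above every Sham library, and EMPA-Pre-AMI 4 stood far above the other 3. The log2 fold change was 5.69 ± 1.05 (SE; FDR 0.0145), or 4.36 without EMPA-Pre-AMI 4, and the call was lost without Sham 2, 3 or 4 (FDR 0.051 to 0.0588). Il6, the gene of interleukin-6, had 3.75, 3.96, 0 and 2.73 CPM in Sham and 41.5, 50, 36.9 and 119.6 in EMPA-Pre-AMI, again without overlap (log2 fold change 4.53 ± 0.77 (SE; FDR 0.00685)). Serpina3f, encoding a secreted inhibitor of serine proteases, was near 0 in Sham, with 1.13, 1.76, 0 and 0 CPM, and at 17.1, 25.8, 23.2 and 46.2 in EMPA-Pre-AMI (log2 fold change 5.24 ± 0.72 (SE; FDR 0.000792), or 6.02 without Sham 2). Its neighbor in the same cluster of inhibitors, Serpina3n, had 48.4, 38.3, 45.1 and 49.9 CPM in Sham and 113, 136, 86.4 and 215 in EMPA-Pre-AMI (log2 fold change 1.6 ± 0.29 (SE; FDR 0.00487)). The genes of this cluster are near copies of each other, and how the counting divided reads among them is uncertain. Lcn2, encoding lipocalin 2, which binds bacterial iron carriers, had at most 2 counts in any Sham library and 5.19, 8.95, 3.16 and 15.1 CPM in EMPA-Pre-AMI, at least 6.13-fold higher against a floor of 3 counts in the smallest Sham library (FDR 0.00487). In all, 5 of 14 tested acute phase and pattern recognition genes rose and none fell, the other 2 being Ptx3 and Il1r1, the receptor of interleukin-1 (201, 77.9, 155 and 79.2 CPM in Sham, 339, 506, 319 and 457 in EMPA-Pre-AMI; log2 fold change 1.66, FDR 0.00608). The median log2 fold change of the list was 1.16, beside -0.03 for all tested genes.

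The interleukin-6 family and its feedback genes included 8 of 18 tested members that rose and 1, Pias3, that fell. Cish, a feedback inhibitor that cytokine receptors induce through STAT proteins, had 0.751, 5.28, 3.04 and 0 CPM in Sham and 21.3, 20.5, 17.4 and 34.5 in EMPA-Pre-AMI (log2 fold change 3.42 ± 0.62 (SE; FDR 0.00528), or 4.26 without Sham 2). Socs2, of the same SOCS family, was abundant and tight, at 349, 317, 303 and 256 CPM in Sham and 710.5, 866, 776 and 954 in EMPA-Pre-AMI. The lowest infarcted library was far above the highest Sham library, and the FDR was 0.00012 at a log2 fold change of 1.43 ± 0.17 (SE). Il6ra, the ligand-binding chain of the interleukin-6 receptor, rose from 72.6 ± 6.14 CPM (mean ± SD, n = 4) to 157 ± 33.8 (n = 4; log2 fold change 1.11, FDR 0.00214). Bcl3, an IκB protein that joins NF-κB dimers in the nucleus, rose from 3.93 ± 2.2 to 24.5 ± 16.3 CPM (n = 4 each; log2 fold change 2.66, FDR 0.0106). Stat3, Pim1, Osmr and Socs3 were the other risers of the list. Lif, Clcf1, Ctf1 and Osm, all ligands of the family, had too few counts to be tested.

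NF-κB is held in the cytoplasm by inhibitors until cytokines or tissue damage release it, and many of its targets feed back on the pathway. Of 19 tested NF-κB subunits and feedback genes, 6 rose and none fell. Birc3, an inhibitor of apoptosis protein that sits at tumor necrosis factor receptors, had 19.1, 11.4, 15.2 and 15.4 CPM in Sham and 50.9, 53.2, 49 and 99.2 in EMPA-Pre-AMI (log2 fold change 2.04 ± 0.33 (SE; FDR 0.00216)). Birc2, the related gene next to it, lay 8.669 kb away on chromosome 9 with no tested gene between them and rose less, from 54.8 ± 15.1 to 113 ± 27.3 CPM (n = 4 each; log2 fold change 1.04, FDR 0.00941). The subunit gene Rel had 18, 17.6, 12.6 and 7.17 CPM in Sham and 46.2, 38.4, 31.6 and 32.1 in EMPA-Pre-AMI (log2 fold change 1.42, FDR 0.00593). Tnfaip2 rose from 247 ± 56 to 612 ± 296 CPM (n = 4 each; log2 fold change 1.31, FDR 0.0207), a call that was lost without Sham 2, 3 or 4 or EMPA-Pre-AMI 4 (FDR 0.0536 to 0.0785). In contrast, Ikbke, encoding the kinase IKKε, was among the 12 top fallers that met the same limits, with 12, 12.3, 11.3 and 14.7 CPM in Sham and 1.56, 1.05, 4.22 and 2.92 in EMPA-Pre-AMI (log2 fold change -2.34 ± 0.44 (SE; FDR 0.00544)). Among 15 tested chemokine ligands only Cxcl5, a neutrophil attractant, passed the test, at 3.38, 10.6, 5.64 and 3.76 CPM in Sham and 17.1, 67.4, 30 and 292 in EMPA-Pre-AMI. EMPA-Pre-AMI 4 stood far above the other 3. The log2 fold change was 4.14 ± 0.98 (SE; FDR 0.0407), or 2.73 without EMPA-Pre-AMI 4, and the call was lost without Sham 1, 2, 3 or 4, Control-AMI 2, 3 or 4 or EMPA-Pre-AMI 2 (FDR 0.0539 to 0.118). The list's median log2 fold change was 0.69. Sele, the gene of E-selectin, an adhesion receptor for leukocytes best known from endothelium, had 0.751, 0, 1.74 and 2.05 CPM in Sham and 15.1, 15.8, 20 and 37.9 in EMPA-Pre-AMI (log2 fold change 4.19 ± 0.71 (SE; FDR 0.00341)). It was highest in EMPA-Pre-AMI 4, in which the 10 endothelial markers summed to 180 CPM, with Fabp4 at 95.3, Tek at 47.7 and Cdh5 at 0. The part of endothelial RNA in the Sele values was not tested. Rnd1, a small GTPase that loosens actin fibers, had 1.5, 3.96, 0.434 and 0 CPM in Sham and 13.5, 13.7, 12.1 and 82.7 in EMPA-Pre-AMI, with EMPA-Pre-AMI 4 again far above the rest. Its log2 fold change was 4.39 ± 1.05 (SE; FDR 0.0351), with 3.17 without EMPA-Pre-AMI 4 and 5.47 without Sham 2, and the call was lost without Sham 1, 3 or 4 or EMPA-Pre-AMI 4 (FDR 0.0566 to 0.0976).

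Promoters of Il6 and Ptx3, both among the 12 top risers that met the same limits, are printed from 250 bases before to 50 bases after the start of the GENCODE canonical transcript in GRCm39, 5′ to 3′ on the coding strand, because both hold the same pair of short motifs, a choice made after the matches were seen. Capitals mark every match on either strand to the core of an NF-κB site, GGG and CC around a central T, and to TTGCNNAA, the core of a C/EBP site; neither overlaps the other. The first is chr5:30217862-30218161 and the second chr3:66127081-66127380, both on the plus strand.
Il6: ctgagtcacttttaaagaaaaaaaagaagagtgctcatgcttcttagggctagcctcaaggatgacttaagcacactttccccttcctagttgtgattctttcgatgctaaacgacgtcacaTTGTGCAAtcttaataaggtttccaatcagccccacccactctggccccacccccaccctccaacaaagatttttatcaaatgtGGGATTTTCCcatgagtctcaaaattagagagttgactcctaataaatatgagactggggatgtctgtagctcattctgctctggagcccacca
Ptx3: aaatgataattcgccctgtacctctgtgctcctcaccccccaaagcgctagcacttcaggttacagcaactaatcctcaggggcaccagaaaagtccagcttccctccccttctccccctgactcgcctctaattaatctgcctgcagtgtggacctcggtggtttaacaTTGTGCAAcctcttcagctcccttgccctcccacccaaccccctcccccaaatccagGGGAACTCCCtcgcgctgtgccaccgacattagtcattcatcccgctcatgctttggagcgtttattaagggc
The κB letters began at -44 in Il6 and at -23 in Ptx3, counting the first transcribed base as 0, and the C/EBP letters at -128 and -80. Of 10673 promoters of tested genes, 22.2% held the κB letters and 8.84% the C/EBP letters, beside 25.4% and 11.3% of the promoters of the 390 higher genes. These shares describe letters and show no binding.

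After Actb, the metallothioneins had the largest rises in CPM of all called genes. Mt1 and Mt2 encode small cysteine-rich proteins that bind zinc and copper, and both are standard targets of the zinc sensor MTF1 and of glucocorticoids. Mt2 was at 324, 189, 68.5 and 199.5 CPM in the Sham libraries and at 4245, 5981, 4607 and 11020 in EMPA-Pre-AMI, a 33-fold difference (log2 fold change 5.05 ± 0.50 (SE; FDR 0.00014)). Mt1 had 614, 308, 192 and 222 CPM in Sham and 4082, 6224, 4224 and 8664 in EMPA-Pre-AMI (log2 fold change 4.12 ± 0.40 (SE; FDR 8.34e-05)). The highest Sham library stayed well below the lowest infarcted library for both genes. They are neighbors on chromosome 8, Mt2 at chr8:94898819-94900207 and Mt1 at chr8:94905710-94906955, 5.502 kb apart on the plus strand and alike in sequence. Slc39a14, a transporter that brings zinc into cells, was a smaller riser of the list, from 13.6 ± 7.11 to 48.7 ± 24.2 CPM (n = 4 each; log2 fold change 1.83, FDR 0.0199), and its call was lost without Sham 3 or EMPA-Pre-AMI 4 (FDR 0.051 to 0.0636). With it, 3 of 6 tested metal genes rose and none fell.

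The same 300-base windows of both metallothionein genes are shown because they are the textbook carriers of metal response elements. Capitals mark the matches to TGCACNC or TGCGCNC on either strand. Mt1 (chr8:94905460-94905759) held 3 of them, at -16, 9 and 27, and Mt2 (chr8:94898882-94899181) held 2, at -109 and -14. These positions count from the annotated start of the canonical transcript, and other starts of the genes were not examined.
Mt1: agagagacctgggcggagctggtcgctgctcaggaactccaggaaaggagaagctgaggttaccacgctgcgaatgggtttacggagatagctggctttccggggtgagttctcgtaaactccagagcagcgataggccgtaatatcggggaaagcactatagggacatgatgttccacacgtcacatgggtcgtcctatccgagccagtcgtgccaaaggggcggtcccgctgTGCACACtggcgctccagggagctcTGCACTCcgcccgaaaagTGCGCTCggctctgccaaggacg
Mt2: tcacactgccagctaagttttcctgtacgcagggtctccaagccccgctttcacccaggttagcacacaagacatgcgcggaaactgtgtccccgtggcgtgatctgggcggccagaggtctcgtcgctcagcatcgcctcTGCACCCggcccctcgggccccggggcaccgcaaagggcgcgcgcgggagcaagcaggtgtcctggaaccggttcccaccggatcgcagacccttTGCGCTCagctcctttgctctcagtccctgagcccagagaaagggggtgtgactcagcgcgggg
Over all tested genes 13.4% of promoters held TGCACNC and 23.9% held TGCGCNC. Among the higher genes the shares were 13.3% and 23.6%.

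Immediate early factors, which are switched on without new protein synthesis, had mixed values. Of 28 tested, 5 rose and 1 fell. Fosl1, an AP-1 subunit of the Fos family, was the clearest, at 2.63, 0, 0.434 and 1.02 CPM in Sham and 10.4, 17.9, 16.9 and 56.4 in EMPA-Pre-AMI (log2 fold change 4.51 ± 0.75 (SE; FDR 0.00358), 3.75 without EMPA-Pre-AMI 4 and 5.46 without Sham 1), and its relative Fosl2 had 193, 168, 88.9 and 160.2 CPM in Sham and 560, 396, 379 and 532 in EMPA-Pre-AMI (log2 fold change 1.61, FDR 0.00246). Ier5 rose from 103 ± 27.9 to 258 ± 103 CPM (n = 4 each; log2 fold change 1.32, FDR 0.00773), and Maff and Myc also passed. Klf2, a factor that restrains inflammatory transcription, moved the other way, from 352, 514, 362 and 574 CPM in Sham to 153, 177, 139.7 and 95.3 in EMPA-Pre-AMI. Its groups were far apart (log2 fold change -1.67 ± 0.24 (SE; FDR 0.000698)). Fos, Jun, Ier2, Zfp36 and Nr4a1, all members of the list, were not called, with log2 fold changes of -0.15, -0.18, -0.28, -0.17 and -0.27. Digestion and sorting of tissue are known to induce such factors in any group, and their part here was not tested.

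Stress pathways had a few called members each, to be read beside the 3.65% of all tested genes that were higher. For hypoxia and glycolysis 3 of 30 tested genes rose: Hk2, the hexokinase that traps glucose in the cell, from 83.3, 120.5, 67.7 and 69 CPM in Sham to 214, 179, 213 and 480.4 in EMPA-Pre-AMI (log2 fold change 1.68, FDR 0.00958), the oxygen-regulated factor Hif1a (log2 fold change 1.10, FDR 0.0116), and the glucose transporter Slc2a1 (log2 fold change 1.69, FDR 0.0185), whose call was lost without Sham 2 or 3 or EMPA-Pre-AMI 4 (FDR 0.0557 to 0.0671). The list's median, 0.14, was near that of all genes. Among 21 tested genes of NRF2, a transcription factor of oxidative defense, 3 rose. Txnrd1, thioredoxin reductase, had 83.7, 40, 57.2 and 41 CPM in Sham and 196, 232, 182 and 295 in EMPA-Pre-AMI (log2 fold change 2.02 ± 0.24 (SE; FDR 0.000155)), and Srxn1, sulfiredoxin, had a log2 fold change of 1.39, FDR 0.00361. Hmox1, heme oxygenase 1, was at 2.63, 1.32, 1.74 and 0 CPM in Sham and 5.71, 18.9, 4.22 and 12.2 in EMPA-Pre-AMI (log2 fold change 2.83, FDR 0.023), and its call was lost without Sham 2 or 3 or EMPA-Pre-AMI 2 or 4 (FDR 0.0543 to 0.0946). Of 18 tested p53 targets and growth arrest genes 5 rose, Plk3, Gadd45a, Gadd45b, Gadd45g and Cdkn1a. Plk3, a stress kinase, had 4.88, 5.72, 2.17 and 1.71 CPM in Sham and 23.9, 14.2, 11.6 and 18.5 in EMPA-Pre-AMI (log2 fold change 2.23, FDR 0.00341), and the 3 Gadd45 genes, sensors of DNA damage and stress, had log2 fold changes of 1.64, 1.85 and 1.99 (FDR 0.00818, 0.00608 and 0.00722), with 2.44 for Gadd45b without Sham 1.

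The integrated stress response had 2 risers among 21, beside 3.65% of all tested genes higher. These were Ddit4, an inhibitor of mTOR (log2 fold change 1.74, FDR 0.00367), and Cebpb, a bZIP factor of inflammation (log2 fold change 2.03, FDR 0.0487), whose call was lost without Sham 1, 2, 3 or 4, Control-AMI 2 or 3 or EMPA-Pre-AMI 1, 2 or 4 (FDR 0.0573 to 0.143). Heat shock chaperones had 1 riser among 17, Dnajb4 (log2 fold change 1.09, FDR 0.036), a call lost without Sham 2, 3 or 4, Control-AMI 1 or EMPA-Pre-AMI 1 or 2 (FDR 0.05 to 0.115). No gene of the interferon list passed among 25 tested, by edgeR or DESeq2 (6 with an unadjusted p below 0.05, median log2 fold change -0.07), and none of 11 complement genes did (1 with an unadjusted p below 0.05, median 0.00).

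Among glucocorticoid-responsive genes, 8 of 17 tested members were higher and none was lower, with a median log2 fold change of 1.09. Zbtb16, encoding the zinc finger factor PLZF, was at 65.3, 42.7, 29.1 and 36.2 CPM in the Sham libraries and at 421, 418, 252 and 398 in EMPA-Pre-AMI (log2 fold change 3.10 ± 0.26 (SE; FDR 7.08e-06)). The 2 groups were separated by a wide gap. Map3k6, a kinase of the stress cascade, had 56.3, 41.4, 24.7 and 29 CPM in Sham and 178, 216, 196 and 145 in EMPA-Pre-AMI (log2 fold change 2.28 ± 0.24 (SE; FDR 8.34e-05)). Glul, glutamine synthetase, had 280.4, 226, 244 and 295 CPM in Sham and 997, 510.5, 394 and 579 in EMPA-Pre-AMI (log2 fold change 1.25, FDR 0.00509). Klf9, a Krüppel-like factor and one of the 5 most abundant risers, had 976, 988, 729 and 1069 CPM in Sham and 2585, 1537, 1730 and 2137 in EMPA-Pre-AMI (log2 fold change 1.09, FDR 0.00608). The receptor gene itself, Nr3c1, was not called (log2 fold change -0.34, FDR 0.372), and Tsc22d3 and Dusp1, also on the list, had log2 fold changes of 0.32 and 0.26 without passing.

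Clock genes, which keep daily time in every cell, included 4 risers among 17 tested. Nr1d1 and Nr1d2, the REV-ERB repressors, rose by 0.90, FDR 0.0456, and 1.08, FDR 0.025, on the log2 scale. Cry2, a repressor of the clock, had 0.86, FDR 0.0334, and Nfil3, a bZIP repressor, 1.23, FDR 0.0215. All 4 calls were lost with some library left out: Nr1d1 without Sham 1, 3 or 4, Control-AMI 1, 2 or 3 or EMPA-Pre-AMI 1, 2, 3 or 4 (FDR 0.052 to 0.126), Nr1d2 without Sham 3 or 4 or EMPA-Pre-AMI 2 or 4 (FDR 0.053 to 0.0851), Cry2 without Sham 2, 3 or 4 or EMPA-Pre-AMI 1 or 2 (FDR 0.0734 to 0.0926) and Nfil3 without Sham 2, 3 or 4 or EMPA-Pre-AMI 4 (FDR 0.0707 to 0.0801). The core activator Bmal1 was not called (log2 fold change -0.80), nor was Per2 (-0.37). The hour at which hearts were taken is not given in the sources used here.

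**Figure D2:**
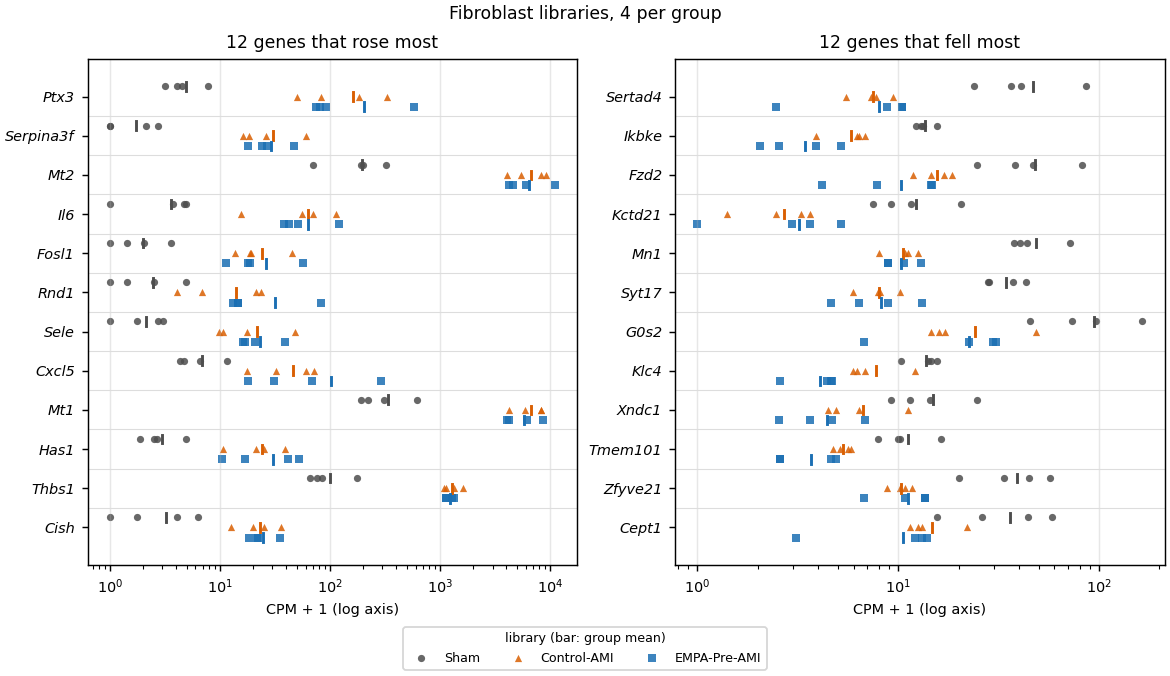
CPM + 1 on a log axis (x) of the 12 top risers (left) and 12 top fallers (right) with at least 10 CPM in the higher group, between Sham and EMPA-Pre-AMI fibroblasts, 1 symbol per library (n = 4 per group) and a bar at each group mean, with the Control-AMI libraries as triangles. Sham and EMPA-Pre-AMI do not overlap for any gene shown, since the genes were chosen that way, and EMPA-Pre-AMI 4 is far to the right for Ptx3, Cxcl5 and Rnd1.

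Several genes of the provisional matrix rose. Thbs1, encoding thrombospondin 1, a matrix protein that platelets and stressed fibroblasts release and that can activate latent TGF-β, had the smallest FDR of all genes. It was at 173, 65.1, 75.5 and 83.3 CPM in the Sham libraries and at 1139, 1127, 1284 and 1345 in EMPA-Pre-AMI, tight within the infarcted group (log2 fold change 3.62 ± 0.28 (SE; FDR 4.12e-06)). Sham 1 was the highest of its group and still far below. Has1, a hyaluronan synthase, had 1.5, 3.96, 0.867 and 1.71 CPM in Sham and 41, 9.47, 15.8 and 51.5 in EMPA-Pre-AMI (log2 fold change 3.86 ± 0.62 (SE; FDR 0.00246)). Vcan, encoding versican, the large proteoglycan that binds hyaluronan, had 422, 354, 447 and 420.4 CPM in Sham and 957, 946, 943 and 1021 in EMPA-Pre-AMI (log2 fold change 1.24 ± 0.14 (SE; FDR 0.00012)). Layn, encoding layilin, a hyaluronan receptor, had 24, 7.92, 15.6 and 10.6 CPM in Sham and 43.1, 76.8, 50.6 and 40.4 in EMPA-Pre-AMI (log2 fold change 1.85 ± 0.34 (SE; FDR 0.005)). These were the 4 risers among 13 tested hyaluronan and provisional matrix genes, with a list median of 0.83.

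Proteases and inhibitors that remodel this matrix had 5 risers among 28 tested and a median of 0.03. Adamts4, a protease that cleaves versican and aggrecan, had 35.7, 24.2, 24.3 and 19.5 CPM in Sham and 145, 141, 138 and 397 in EMPA-Pre-AMI (log2 fold change 2.99 ± 0.45 (SE; FDR 0.00253)), and Adamts1, of the same family, had 169, 108, 109 and 184 CPM in Sham and 628, 290, 301 and 392 in EMPA-Pre-AMI (log2 fold change 1.5, FDR 0.00818). Timp3, a tissue inhibitor of metalloproteinases that stays bound to the matrix, had 1131, 970, 906 and 1142 CPM in Sham and 2054, 2084, 1779 and 2023 in EMPA-Pre-AMI (log2 fold change 0.94, FDR 0.00347).

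The fibrillar collagens did not pass the test. Col1a1 had 1240, 1118, 1159 and 1458 CPM in Sham and 1519, 1284, 1194 and 1462 in EMPA-Pre-AMI (log2 fold change 0.13, FDR 0.691), and Col1a2 and Col3a1 were at 0.07, FDR 0.9, and -0.29, FDR 0.49, on the log2 scale. Only the basement membrane chains Col4a1 and Col4a2 rose among 23 tested collagen genes (median -0.01). Col4a1 rose from 935 ± 141 to 1539 ± 225 CPM (n = 4 each; log2 fold change 0.72, FDR 0.0245) and Col4a2 from 300.1 ± 13.7 to 471 ± 38.4 (log2 fold change 0.65, FDR 0.0154). They lie head to head on chromosome 8, at chr8:11248423-11362826 on the minus and chr8:11362471-11499287 on the plus strand, with starts that overlap. Reads within the overlap cannot be assigned without strand. The study made its libraries with a 3′ mRNA kit, which reads transcripts at the end away from their start. The Col4a1 call was lost without Sham 2 or 3 or EMPA-Pre-AMI 4 (FDR 0.0634 to 0.0939), and the Col4a2 call without Sham 2 or 3 (FDR 0.0513 to 0.053).

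Of 22 tested genes of the myofibroblast program 3 rose and 1 fell, Thbs1 among the risers. Tagln, encoding the actin-binding protein SM22α, had 3.38, 3.08, 4.77 and 5.81 CPM in Sham and 28, 33.2, 36.9 and 32.1 in EMPA-Pre-AMI, with a wide gap between the groups (log2 fold change 2.91 ± 0.34 (SE; FDR 0.00014)). Acta2, the α-smooth muscle actin of myofibroblasts, did not share this and overlapped entirely, at 15.4, 44.4, 18.2 and 25.6 CPM in Sham and 33.7, 14.7, 20 and 45.2 in EMPA-Pre-AMI (log2 fold change 0.14, FDR 0.901). Postn, encoding periostin, had a log2 fold change of 0.82, FDR 0.0334 and lost its call without Sham 1, 2 or 3 or EMPA-Pre-AMI 1, 2 or 4 (FDR 0.0505 to 0.114). Meox1, a homeobox factor, fell (log2 fold change -1.05, FDR 0.0361), a call lost without Sham 2, 3 or 4, Control-AMI 1 or 2 or EMPA-Pre-AMI 2 or 4 (FDR 0.0509 to 0.129). Actb, the β-actin gene that is often used as a reference, had the highest CPM of all called genes and rose from 8327, 9006, 9467 and 7946 CPM in Sham to 11960, 16590, 16640 and 19700 in EMPA-Pre-AMI (log2 fold change 0.90 ± 0.19 (SE; FDR 0.00995)).

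Signals of TGF-β and BMP had 2 risers and 1 faller among 38 tested genes, and a median of 0.05. Over all tested genes 3.65% were higher and 1.46% lower. Among the risers was the BMP transducer Smad1 (log2 fold change 0.77, FDR 0.0484), whose call was lost without Sham 2, 3 or 4, Control-AMI 1, 2 or 3 or EMPA-Pre-AMI 1, 2 or 4 (FDR 0.0537 to 0.147). Inhbb, encoding the activin subunit βB, fell from 71.3, 41.4, 45.1 and 59.1 CPM in Sham to 20.8, 18.4, 19 and 11.2 in EMPA-Pre-AMI (log2 fold change -1.65 ± 0.32 (SE; FDR 0.00727)). Of 23 tested growth factor ligands 1 rose, Ereg, encoding epiregulin, a ligand of the EGF receptor, with at most 2 counts in any Sham library and 9.34, 7.37, 3.16 and 8.75 CPM in EMPA-Pre-AMI, at least 5.42-fold higher against the floor of 3 counts in the smallest Sham library (FDR 0.00338). The prostanoid pathway had 1 of 11 in each direction: the prostaglandin E2 receptor Ptger4 rose (21.8, 33.4, 19.1 and 27.7 CPM in Sham, 66.4, 103, 65.9 and 174 in EMPA-Pre-AMI; log2 fold change 2.00, FDR 0.0154) and the prostacyclin receptor Ptgir fell (43.5, 44, 65.9 and 73.4 CPM in Sham and 16.1, 28.4, 27.9 and 33.5 in EMPA-Pre-AMI; log2 fold change -1.10, FDR 0.0186). The Ptger4 call was lost without Sham 3 or 4 (FDR 0.0528 to 0.0563) and the Ptgir call without Sham 3 or 4 (FDR 0.0586 to 0.0676).

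Ribosome biogenesis was the list with the most called genes. Its members copy, cut and fold ribosomal RNA in the nucleolus, a costly step that cells switch on before they grow. Of 25 tested, 11 rose and none fell, against 3.65% of all genes higher, 24 had a log2 fold change above 0, and the median was 0.89. Nolc1, a nucleolar phosphoprotein, had 84.8, 65.1, 91.5 and 65.6 CPM in Sham and 145, 217, 161 and 271 in EMPA-Pre-AMI (log2 fold change 1.37 ± 0.21 (SE; FDR 0.00119)). Nop56, a core protein of the particles that methylate ribosomal RNA, had 134, 69.5, 76.8 and 65.6 CPM in Sham and 203, 306, 202 and 298 in EMPA-Pre-AMI (log2 fold change 1.54 ± 0.24 (SE; FDR 0.00129)). For both, the lowest infarcted library was above the highest Sham library. Gnl3, the nucleolar GTPase nucleostemin, had a log2 fold change of 1.44, FDR 0.00216, and Ddx21, a nucleolar helicase, 1.48, FDR 0.00431, with its highest value again in EMPA-Pre-AMI 4. Nop58, Wdr43, Ncl, Mybbp1a, Tsr1, Rrs1 and Noc2l completed the called members.

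**Figure D3:**
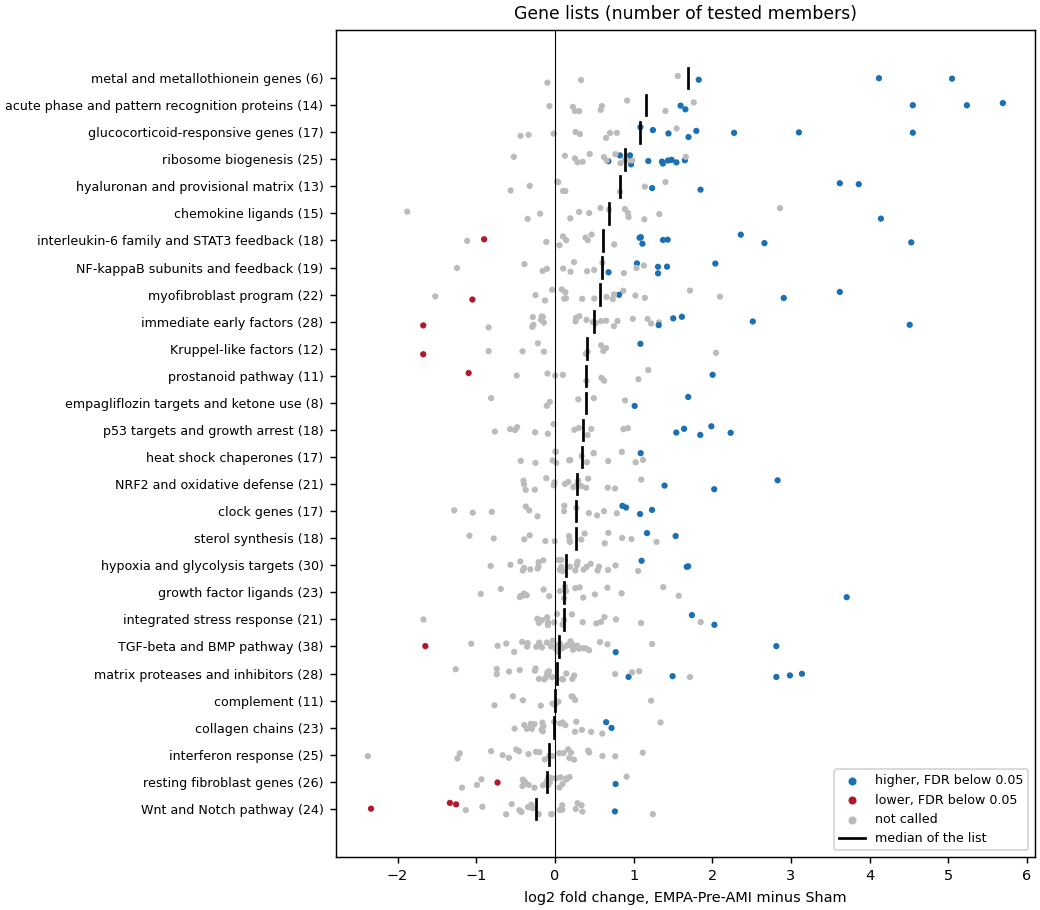
Log2 fold changes of EMPA-Pre-AMI over Sham (x) for the tested members of 28 gene lists (rows, with the number tested), 1 point per gene, blue when higher and red when lower at an FDR below 0.05, with a black bar at each list's median. Rows are ordered by the median, from 1.69 for the 6 metal genes to -0.24 for the 24 Wnt and Notch genes, and 11 of the 25 ribosome biogenesis points are blue.

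Fewer genes fell. Sertad4 fell most of those that met the naming rule, from 22.9, 35.6, 39.9 and 85.4 CPM in Sham to 7.79, 9.47, 9.49 and 1.46 in EMPA-Pre-AMI (log2 fold change -2.71 ± 0.46 (SE; FDR 0.00321)). Mn1, a transcriptional coregulator, had 36.8, 42.7, 39.5 and 70.4 CPM in Sham and 11.9, 7.89, 7.91 and 9.72 in EMPA-Pre-AMI, and had the smallest FDR among the fallers (log2 fold change -2.33 ± 0.28 (SE; FDR 0.000156)). Syt17, of the synaptotagmin family, had 27, 42.2, 36.4 and 27.3 CPM in Sham and 3.63, 12.1, 7.91 and 5.35 in EMPA-Pre-AMI (log2 fold change -2.19 ± 0.34 (SE; FDR 0.0015)). G0s2, an inhibitor of the lipase that starts fat breakdown, had 44.3, 95.9, 72 and 163 CPM in Sham and 29.6, 5.79, 21.6 and 28.7 in EMPA-Pre-AMI (log2 fold change -2.13, FDR 0.0455), a call lost without Sham 2, 3 or 4, Control-AMI 1, 2 or 3 or EMPA-Pre-AMI 1, 2, 3 or 4 (FDR 0.0593 to 0.116). Klc4, a kinesin light chain, had a log2 fold change of -2.02, FDR 0.00857, and Zfyve21 of -1.88, FDR 0.00375.

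Cept1, an enzyme of phospholipid synthesis, had a log2 fold change of -1.86, FDR 0.0328 and lost its call without Sham 2 or 4 or EMPA-Pre-AMI 2, 3 or 4 (FDR 0.0607 to 0.107). Kctd21 (-2.33, FDR 0.0483) lost its call without Sham 2, 3 or 4, Control-AMI 1, 2 or 3 or EMPA-Pre-AMI 1, 2, 3 or 4 (FDR 0.0578 to 0.163). Xndc1 (-1.99, FDR 0.0279) did so without Sham 2 or 4 or EMPA-Pre-AMI 1, 2 or 3 (FDR 0.0591 to 0.116) and Tmem101 (-1.90, FDR 0.0211) without Sham 4 or EMPA-Pre-AMI 2 or 3 (FDR 0.0646 to 0.0812). Among the most abundant fallers Htra3, a secreted serine protease, had 1513, 1081, 1281 and 1356 CPM in Sham and 962, 766, 807 and 619.5 in EMPA-Pre-AMI (log2 fold change -0.73, FDR 0.0293), and its call was lost without Sham 3 or 4 or EMPA-Pre-AMI 2, 3 or 4 (FDR 0.0641 to 0.0854). Clmp, an adhesion molecule of tight junctions, was very even, at 595, 595, 605 and 628 CPM in Sham and 367, 318, 374 and 331 in EMPA-Pre-AMI (log2 fold change -0.80 ± 0.16 (SE; FDR 0.00884)). Prelp, a small leucine-rich matrix protein, had 378, 402, 419 and 426 CPM in Sham and 300, 275, 251 and 248 in EMPA-Pre-AMI (log2 fold change -0.60, FDR 0.0224), a call lost without Sham 2, 3 or 4 or EMPA-Pre-AMI 2, 3 or 4 (FDR 0.0532 to 0.0686). Marcks (-0.81, FDR 0.045) and Ddx17 (-0.65, FDR 0.0486) lost theirs without Sham 2, 3 or 4, Control-AMI 1, 2 or 3 or EMPA-Pre-AMI 1, 2 or 3 (FDR 0.0605 to 0.15), and without Sham 2, 3 or 4, Control-AMI 1, 2 or 3 or EMPA-Pre-AMI 1, 2 or 4 (FDR 0.0639 to 0.146), respectively.

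Receptors and targets of Wnt and Notch had the lowest median of the 28 lists, with 3 of 24 tested members lower, 1 higher and a median log2 fold change of -0.24. Fzd2, a Wnt receptor, had 23.6, 45.8, 37.3 and 81.3 CPM in Sham and 13.5, 3.16, 13.7 and 6.81 in EMPA-Pre-AMI (log2 fold change -2.34 ± 0.42 (SE; FDR 0.0043)), while Fzd4, another receptor of the family, rose (182, 124, 186 and 149 CPM in Sham and 317, 286, 246 and 240.2 in EMPA-Pre-AMI; log2 fold change 0.76, FDR 0.0144). The Fzd4 call was lost without Sham 2 (FDR 0.0556). Heyl, a target of Notch, fell (log2 fold change -1.33, FDR 0.0153), a call lost without EMPA-Pre-AMI 2 (FDR 0.0509), as did the ligand Wnt5a (-1.26, FDR 0.0297), a call lost without Sham 2, 3 or 4 or EMPA-Pre-AMI 1, 2 or 4 (FDR 0.0537 to 0.0933). Of 26 resting fibroblast genes 1 rose, Medag (log2 fold change 0.77, FDR 0.0153; lost without Sham 2 or 3 (FDR 0.0501 to 0.053)), and 1 fell, Htra3.

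The transporters that EMPA acts on were at or near 0. Slc5a2, the gene of SGLT2, had 0 counts in all 8 libraries compared and 2 counts in all 12, and Slc5a1, the gene of SGLT1, had 0 in all 12. Of 8 tested genes of EMPA's targets and ketone use 2 rose, Slc2a1 and the monocarboxylate transporter Slc16a1, which had 19.9, 18, 29.5 and 19.5 CPM in Sham and 40, 51.6, 24.8 and 58.8 in EMPA-Pre-AMI (log2 fold change 1.01, FDR 0.0334). Its groups overlapped, and the call was lost without Sham 1, 2 or 4 or EMPA-Pre-AMI 2 or 4 (FDR 0.0503 to 0.107). Sterol synthesis had 2 risers among 18, Stard4, a carrier of cholesterol (15, 8.36, 10.8 and 17.4 CPM in Sham, 24.9, 34.7, 49.5 and 41.8 in EMPA-Pre-AMI; log2 fold change 1.53, FDR 0.0097), and Cyp51, an enzyme of the pathway (log2 fold change 1.17, FDR 0.0269), whose call was lost without Sham 2, 3 or 4 or EMPA-Pre-AMI 2, 3 or 4 (FDR 0.0593 to 0.0888).

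The question whether EMPA altered this response is addressed by EMPA-Pre-AMI against Control-AMI, which share the infarction. No gene passed (0 of 10691, smallest FDR 1), by edgeR or by DESeq2, and 170 genes had an unadjusted p below 0.05. Both infarcted groups were set against the same 4 Sham libraries, so their fold changes share controls. In Control-AMI 445 genes (4.16%) differed from Sham. The study reports a larger number for this comparison at the same threshold, and the reason for the gap was not tested. Mt2 had 4092, 8218, 5436 and 9231 CPM in Control-AMI, a log2 fold change over Sham of 5.11 beside 5.05 in EMPA-Pre-AMI, and the difference between the infarcted groups was -0.06 (95% interval -0.98 to 0.85). For Thbs1 the Control-AMI values were 1138, 1089, 1341 and 1609 CPM and the difference was -0.08 (95% interval -0.60 to 0.44). For Zbtb16 they were 279, 292, 204 and 349.9 CPM and the difference was 0.41 (95% interval -0.10 to 0.91).

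A missing call does not show that the groups were alike, and the intervals give what the 4 libraries per group allowed. Of the 546 genes called against Sham, the 95% interval of EMPA-Pre-AMI over Control-AMI stayed within 2-fold in either direction for 422 and within 1.5-fold for 160. The intervals were wide for 3 of the top risers: Il6 had a difference of -0.01 (95% interval -1.28 to 1.27), Ptx3 of 0.35 (95% interval -1.39 to 2.09) and Cxcl5 of 1.18 (95% interval -0.64 to 3.01). A few named genes had an interval that excluded 0 before any adjustment. Lcn2, at 1.15, 3, 1.94 and 4.94 CPM in Control-AMI, differed by 1.54 (95% interval 0.20 to 2.88), Klc4 by -1.13 (95% interval -2.01 to -0.25), Srxn1 by -0.59 (95% interval -1.09 to -0.09) and Cyp51 by -0.62 (95% interval -1.20 to -0.04), all with an FDR of 1. In the ribosome biogenesis list the median of EMPA-Pre-AMI over Control-AMI was 0.25 and in the sterol list it was -0.16, with no member called in either. Over all tested genes the median absolute log2 difference between the infarcted groups was 0.16. Whether EMPA shifted either list was not tested.

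**Figure D4:**
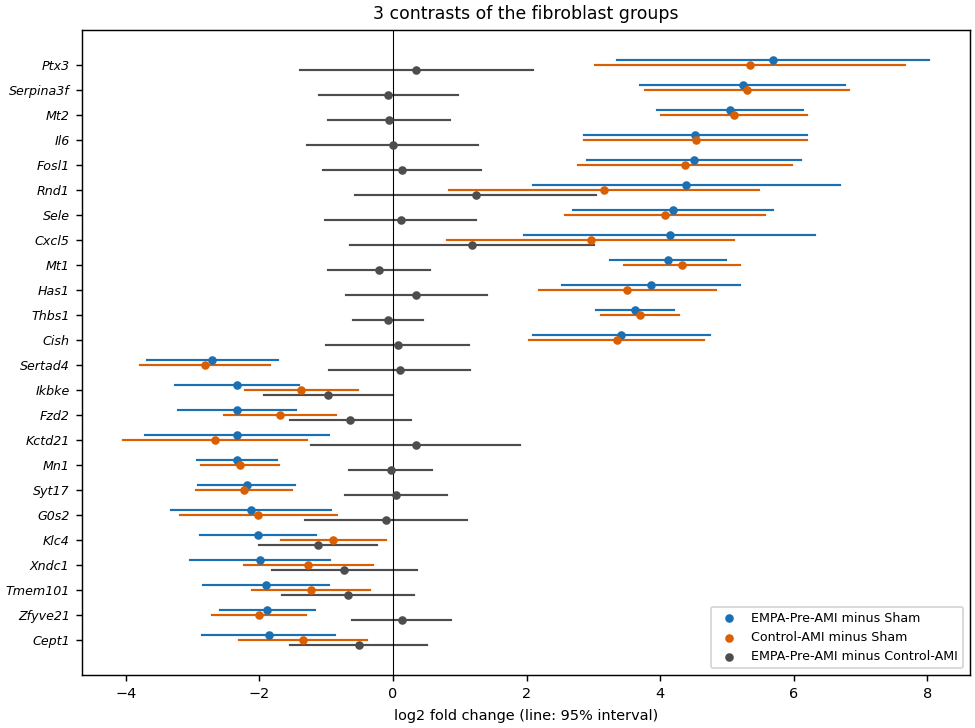
Log2 fold changes (points) with 95% intervals (lines) on the x axis for the 12 top risers and the 12 top fallers (rows), in EMPA-Pre-AMI over Sham (blue), Control-AMI over Sham (orange) and EMPA-Pre-AMI over Control-AMI (gray). The first 2 contrasts share the Sham libraries; the gray interval crosses 0 for every gene but Klc4.

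Whether the change was particular to fibroblasts was tested against endothelial cells (ECs) sorted from hearts of the same groups, with 4 Sham and 5 EMPA-Pre-AMI libraries, in 1 fit. In both populations this comparison holds the infarction and the drug together. The study reports that EMPA changed the EC transcriptome after infarction but did not significantly alter that of fibroblasts. The part of the drug in differences between the populations was not tested. Of 11615 genes tested there, the difference between EMPA-Pre-AMI and Sham was itself different between the populations for 44 (0.379%), with 27 of them (0.232%) more positive in fibroblasts. Layn rose by 1.86 on the log2 scale in fibroblasts and had -0.75 in ECs, from 20.6 ± 3.32 to 12.2 ± 3.72 CPM (mean ± SD), a difference of 2.61 ± 0.45 (SE; FDR 0.0036). Actb had 0.92 in fibroblasts and -0.37 in ECs, where it went from 8826 ± 516 to 6829 ± 492 CPM, a difference of 1.29 ± 0.21 (SE; FDR 0.00207). Neither EC change was called on its own.

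Stard4 differed by 2.07 ± 0.39 (SE; FDR 0.00901), Nolc1 by 1.37 ± 0.28 (SE; FDR 0.0197), Plk3 by 2.15 ± 0.47 (SE; FDR 0.0336) and Tagln by 3.62 ± 0.79 (SE; FDR 0.0355), all more positive in fibroblasts. Tagln was uneven in ECs (10.9 ± 10.1 CPM in Sham). Inhbb was the named gene with the opposite sign, at -1.63 in fibroblasts and 0.61 in ECs (difference -2.25 ± 0.51 (SE; FDR 0.0382)). The calls of Layn, Actb and Stard4 were kept without any 1 of the 25 libraries. That of Nolc1 was lost without fibroblast Sham 4 or EMPA-Pre-AMI 4 or EC Sham 4 (FDR 0.052 to 0.0694). That of Plk3 was lost without fibroblast Sham 3 or 4 or EMPA-Pre-AMI 1 or 4, or EC Sham 1 or 3 or EMPA-Pre-AMI 3, 4 or 5 (FDR 0.053 to 0.0908). Tagln lost its call without any 1 fibroblast Sham library, fibroblast EMPA-Pre-AMI 2, 3 or 4, or EC Sham 1 or 4 or EMPA-Pre-AMI 1, 3 or 5 (FDR 0.0537 to 0.134). Inhbb lost it without fibroblast Sham 1, 3 or 4, Control-AMI 2 or 3 or EMPA-Pre-AMI 2, 3 or 4, or any 1 EC library of Sham or of EMPA-Pre-AMI 1 to 4 (FDR 0.0501 to 0.108). Mt2, Il6, Thbs1 and Zbtb16 were not called different between the populations (FDR 0.925, 0.764, 0.172 and 0.471). The number of such genes was 67 without Sham 1, 24 without Sham 4, 71 without EMPA-Pre-AMI 1 and 20 without EMPA-Pre-AMI 4 of the fibroblasts. Among the EC libraries it was 23 without Sham 3, 29 without Sham 4, 28 without EMPA-Pre-AMI 1, 29 without EMPA-Pre-AMI 4 and 25 without EMPA-Pre-AMI 5. The part of the endothelial RNA in some fibroblast libraries, given above, was not tested.

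**Figure D5:**
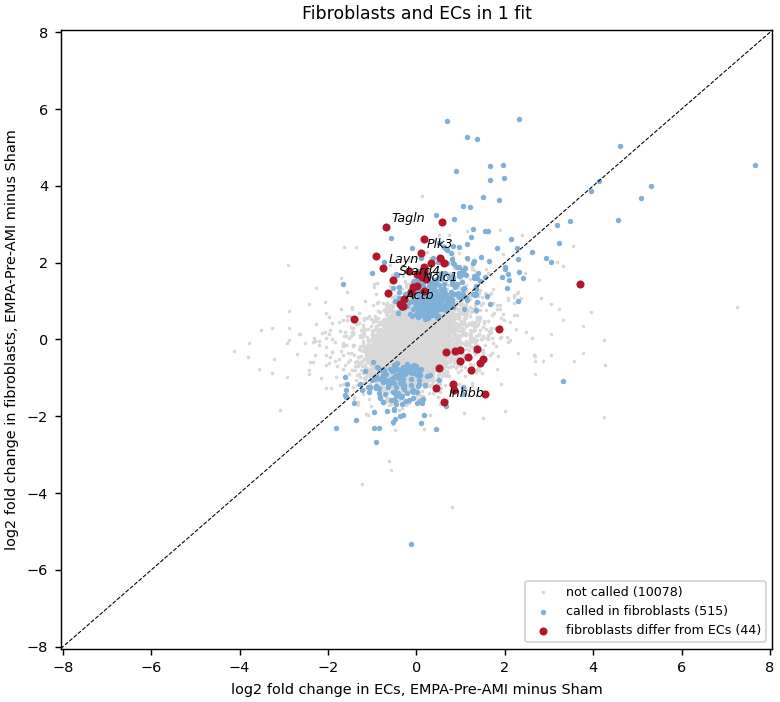
Log2 fold change of EMPA-Pre-AMI over Sham in fibroblasts (y) against the same in ECs (x), 1 point per gene of those tested in fibroblasts and in the joint fit, with a dashed line at equal change. Red points are the 44 genes whose change differed between the populations, light blue points the other genes called in fibroblasts, and most red points, Layn, Tagln and Actb among them, lie above the line.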

How the data were processed

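RNA of sorted fibroblasts was sequenced in 12 libraries, each from 2 pooled hearts and reported by the study as a separate experiment. The authors deposited a table of estimated counts per gene, not normalized, in which 4.55% of the values used were not whole numbers. Per the labels and the study's methods, reads were trimmed with cutadapt 2.8 at a quality of 20 and quantified with Salmon against Ensembl release 106. The version of Salmon, the strand setting and any removal of duplicate molecules are not given in the sources used here. Counts were rounded, and total counts were 1946056 to 2821373 per library.

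Genes were filtered with filterByExpr and tested with edgeR 4.0.16 in R 4.3.3 (TMM, robust quasi-likelihood, all 12 fibroblast libraries in 1 fit, no covariate), with Benjamini-Hochberg adjustment over 10691 genes and a threshold of 0.05. The difference from ECs was tested in 1 fit of 25 libraries. CPM used TMM-scaled library sizes. Fold changes are on the log2 scale, a list was described by its counts and median, and the test was checked on simulated data. Genes were named by rule: the 12 that rose and 12 that fell most among called genes whose groups did not overlap and whose higher group averaged 10 CPM or more, up to 4 called members of each of 28 lists by p, the first 3 fibroblast markers and Thy1, and the 5 most abundant called genes in each direction. Other genes were named after their values were seen, and some that met the rule are not reported here. The comparison, the lists and the tests were chosen with earlier results of these data known. Promoters and positions are from GRCm39 with GENCODE vM39. The alternatives were DESeq2 1.42.0, RLE size factors, no robust estimation, 2 other count filters, the 2 groups alone, the replicate number as a block, the sample-sheet list as a covariate, a range of library numbers, and each library left out in turn.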

Additional observations from a re-analysis of the deposited data

Results flagged for a closer look

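In groups of 4, a library was singled out when its gap to the nearest other library, divided by the range of the group, exceeded Dixon's critical value. Of 192 such tests on the named genes 21 (10.9%) exceeded it. Chance flags about 1 in 20 groups of normally distributed values. The CPM were not on a log scale, and the named genes were chosen from the same values and share libraries. The share flagged is therefore not read as an excess over chance. In 7 of the 21 the library was EMPA-Pre-AMI 4 at the top of its group. It had 576 CPM of Ptx3 (the next library 90.1), 397 of Adamts4 (145), 82.7 of Rnd1 (13.7), 99.2 of Birc3 (53.2), 480 of Hk2 (214), 120 of Il6 (50) and 56.4 of Fosl1 (17.9).

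In 4 cases Sham 1 was at the top of its group, with 77.3 CPM of Birc2, 43.5 of Nfil3, 134 of Nop56 and 173 of Thbs1, values that lay nearer to the infarcted libraries than those of the other 3 Sham libraries. Sham 1 was the only Sham library on the sample-sheet list that held most infarcted libraries. The part of the list in these values was not tested. Sham 4 had the highest Meox1, 129 CPM, and Sham 3 the highest Slc16a1, 29.5 CPM. Sham 3 was lowest for Cry2, at 49 CPM, and for Gadd45g, at 7.37 CPM.

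Among the infarcted libraries EMPA-Pre-AMI 3 was the lowest for Gadd45g at 28.5 CPM, Klc4 at 1.58, Nr1d1 at 29.5 and Zbtb16 at 252. EMPA-Pre-AMI 2 was the lowest for Cept1 at 2.1 CPM, and EMPA-Pre-AMI 1 the highest for Gadd45a at 79.4 CPM.

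The change from Sham to EMPA-Pre-AMI differed between fibroblasts and ECs for 7 named genes by the test of that difference. On the log2 scale, fibroblasts minus ECs, it was 3.62 for Tagln, 2.61 for Layn, 2.15 for Plk3, 2.07 for Stard4, 1.37 for Nolc1, 1.29 for Actb and -2.25 for Inhbb, with FDRs of 0.0355, 0.0036, 0.0336, 0.00901, 0.0197, 0.00207 and 0.0382 (edgeR).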

How the results depend on the processing

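Apart from the fits with 1 library left out, the number of genes called moved by more than 1.5 times under 3 of the planned settings. DESeq2 called 849 genes (613 higher, 236 lower), the fit with the sample-sheet list as a covariate 985 (662 and 323), in which EMPA-Pre-AMI 1 is alone on its list and so adds nothing, and the libraries numbered 1805 and up (Sham 2 to 4, EMPA-Pre-AMI 3 and 4, Control-AMI 4) 263 (221 and 42). With 1 library left out the number called ranged from 264 to 811, from 214 to 560 for higher and from 50 to 251 for lower genes. It moved by more than 1.5 times without Sham 2 (264), Sham 3 (297), Sham 4 (266), EMPA-Pre-AMI 2 (313) and EMPA-Pre-AMI 4 (305). The lower count was also beyond 1.5 times without Sham 1 (251), Control-AMI 2 (103) and EMPA-Pre-AMI 3 (78). Between fibroblasts and ECs DESeq2 called 127 genes, and with 1 library left out 20 to 71 were called. Between EMPA-Pre-AMI and Control-AMI it was 0 in every setting run. All called genes that a setting fitted kept their direction in it, 468 of the 546 with at least 10 counts in every library, 537 with the 2 groups alone and 546 in the others. Of the genes named by rule, 2 that were not called turned sign. Col1a2 had -0.0473 with that covariate, -0.0935 in the libraries numbered 1805 and up, -0.022 without Sham 1, -0.0761 without Sham 3 and -0.0673 without EMPA-Pre-AMI 1, and ranged up to 0.381 without Sham 4. Thy1 had -0.1646 and -0.1941 in the first 2 of these and -0.0561 without EMPA-Pre-AMI 1. The cause was not tested.

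With the replicate number as a block, 731 genes were called (511 higher, 220 lower), 40 between fibroblasts and ECs, and 0 between the infarcted groups. The numbers were not taken as pairing, because deviations of same-numbered Sham and EMPA-Pre-AMI libraries correlated at -0.11, -0.06, 0.03 and 0.28, and not every library correlated best with its own number. At these depths, genes at a few CPM rest on a handful of counts.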

Other observations

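The genes below were chosen after their values were seen and are given as values. Of 7 tested genes of the interferon-inducible p200 family, DNA sensors that lie together on chromosome 1, 6 rose in EMPA-Pre-AMI (Ifi203, Ifi204, Ifi205, Ifi207, Ifi211 and Mndal), and the family's median log2 fold change was 1.61, while no gene of the 25 in the interferon list was called. These genes are near copies of each other, so the split of reads among them is uncertain. Of 21 cytokine receptor chains, 7 rose and none fell (Il11ra3, Il17ra, Il1r1, Il1rl2, Il4ra, Il6ra and Osmr), of 53 translation initiation factors 6 rose and none fell, and of 20 hnRNP genes of nuclear RNA binding 3 rose and none fell. Of 31 DEAD-box helicases 4 rose and 1 fell, and of 11 tubulins 2 rose and 1 fell. Over all tested genes 3.65% rose and 1.46% fell.

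Arid5a, an RNA-binding protein that stabilizes the Il6 transcript, had 9.38, 11.9, 6.94 and 6.15 CPM in Sham, 49.5, 88.6, 51.8 and 64.2 in Control-AMI and 62.3, 63.7, 35.3 and 87 in EMPA-Pre-AMI (log2 fold change 2.86, FDR 8.34e-05, edgeR). Among genes that fell, Eln, the elastin gene, had 308, 356, 356 and 438 CPM in Sham and 190.5, 127, 163 and 124 in EMPA-Pre-AMI (log2 fold change -1.27, FDR 0.000792, edgeR), and Sox9 and Snai2, transcription factors of mesenchymal cells, were at -1.09, FDR 0.0105, and -1.26, FDR 0.0097, on the log2 scale (edgeR). Cdon, a coreceptor of hedgehog signals, had -1.61, FDR 0.000987 (edgeR).

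Rcor2, which encodes a corepressor of the REST complex, was below the level required for naming. It had 7.13, 5.28, 7.81 and 10.2 CPM in Sham, 4.98, 1.88, 3.39 and 3.7 in Control-AMI and 0, 0.526, 0 and 0 in EMPA-Pre-AMI (FDR 0.000926 against Sham, edgeR). Control-AMI was not called against Sham for this gene (log2 fold change -1.12, FDR 0.225, edgeR), and no gene was called between the infarcted groups. The EMPA-Pre-AMI values lay below the floor of 3 counts. Fkbp5, a glucocorticoid target, rose less in fibroblasts than in ECs, by 1.45 against 3.69 on the log2 scale, a difference of -2.24 ± 0.43 (SE; FDR 0.0153).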
